A study of Mus musculus with 8 samples.

Results

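The levels of 10 transcription factor genes that steer CD8 T cells toward effector or memory fates were examined in naive mouse CD8+ T cells cultured with a drug that activates liver X receptors (LXR) or with solvent alone. The genes were taken by symbol from a table of 41730 gene rows: Tbx21, Eomes, Runx1, Runx3, Id2, Id3, Zeb1, Zeb2, Prdm1 and Bcl6. All 10 had a row, and 6 of them held enough counts to be tested. Naive CD8+ cells were purified with a magnetic kit and kept for 24 h with DMSO (4 libraries, replicates 1 to 4) or with RGX-104 at 2 µM (4 libraries, replicates 5 to 8), and 3' end mRNA libraries were sequenced. RGX-104 is a synthetic LXR agonist. The cells were given no antigen in the labels, and the strain, the age and the number of the mice are in none of the sources used here. The labels do not say whether the libraries come from separate animals or cultures. A p-value therefore rests on how far these libraries differ from each other, and that may be technical spread. A pre-effector state is named in the title of the series, and the question asked here is whether the regulators of that decision differ between the groups.

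The decision between effector and memory fates is governed by factors that work in opposed or overlapping pairs. The T-box factors T-bet (Tbx21) and Eomes switch on cytotoxic genes, and Runx factors, bound to their partner Cbfb, open those genes and hold the CD8 lineage in place. The Id proteins bind E proteins and keep them off DNA, with Id2 known from effector cells and Id3 from memory precursors. Zeb2 acts with T-bet in terminal effectors, while its paralog Zeb1 is known from memory cells. Blimp-1 (Prdm1) and Bcl6 repress each other, Blimp-1 in terminal effectors and Bcl6 in memory precursors and follicular cells.

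Bcl6 was the member with the clearest difference between the groups. The RefSeq gene lies on GRCm38.p6 at chromosome 16, 23965050 to 23988866, on the minus strand, and has 2 annotated starts. The windows of 300 bases around these starts, from 250 bases before to 50 after, are shown because they hold a palindrome known to be bound by STAT factors and by Bcl6 itself. Capitals mark each match to TTCNNNGAA, which reads the same on both strands.
Bcl6 upstream start, chr16:23988803-23989102, minus strand: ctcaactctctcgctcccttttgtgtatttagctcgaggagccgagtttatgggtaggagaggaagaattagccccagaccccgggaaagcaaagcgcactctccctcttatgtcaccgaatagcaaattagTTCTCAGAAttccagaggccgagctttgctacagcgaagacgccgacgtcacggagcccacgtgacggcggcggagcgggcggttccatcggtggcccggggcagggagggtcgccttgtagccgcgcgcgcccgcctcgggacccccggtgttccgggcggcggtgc
Bcl6 downstream start, chr16:23981234-23981533, minus strand: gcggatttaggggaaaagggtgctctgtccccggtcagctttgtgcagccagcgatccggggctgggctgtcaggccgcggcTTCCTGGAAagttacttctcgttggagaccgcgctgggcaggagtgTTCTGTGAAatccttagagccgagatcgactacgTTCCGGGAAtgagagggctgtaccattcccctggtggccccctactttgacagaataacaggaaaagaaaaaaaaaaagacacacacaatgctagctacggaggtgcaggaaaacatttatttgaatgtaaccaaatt

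The upstream window held 1 match and the downstream window 3. Of 32851 promoter windows of this length in the RefSeq table, 8.3% held at least 1 match and 11, or 0.0335%, held 3 or more. The Bcl6 windows are shown because of their matches, and the cut of 3 is the count of the downstream window. These shares are therefore description only. Promoter windows were found for 9 of the 10 members, 15 windows in all, and Zeb2 was the other member with a match to this palindrome. The LXR direct repeat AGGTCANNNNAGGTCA, searched on both strands, was found in none of the 15 windows and in 0.0152% of all windows, and the single repeat unit AGGTCA, which the direct repeat contains, in none of the 15 and in 16.3% of all. The Zeb and E protein box CACCTG was found in windows of Prdm1, Runx1, Runx3 and Tbx21, and in 20.2% of all windows. The Runx motif TGNGGT, which was found in 45.8% of all windows, had matches in Id2, Prdm1, Runx1, Runx3 and Zeb2. The T-box motif AGGTGTGA was in none of the 15 and in 1.28% of all. A match is a run of letters and not evidence of binding. The LXR direct repeat was in 5 of the 32851 windows, so its absence from 15 says nothing about these genes. Sites outside the windows or with other letters were not searched.

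The libraries held 16196217 to 28287445 counts and 9772 to 10990 genes with a count. Low genes were at 0 far more often than such totals give for independent reads. The number of molecules that would give the observed zeros, called apparent molecules here, was 182352 to 344257 per library, so that 1 apparent molecule stood for 48.9 to 115 reads. DMSO replicates 1 to 3 had the fewest, 182352 to 211967, against 316834 in DMSO replicate 4 and 250375 to 344257 in the RGX-104 libraries. Of 14 CD8 T cell markers 13 were detected, summing to 4159 to 4367 CPM (counts per 1000000) in DMSO and 4278 to 4748 CPM with RGX-104. Naive T cell markers summed to 5079 to 5426 and 4643 to 5188 CPM, all 10 of them detected. The 10 markers of memory and virtual memory CD8 T cells, 1 of them at 0 throughout, summed to 1070 to 1291 and 1104 to 1201 CPM. In that list Il2rb stood at 290 to 463 CPM over the 8 libraries and Cd44 at 0 to 17.4 CPM. Markers of other cells were lower but not absent. The 10 macrophage and monocyte markers, 9 of them detected, summed to 123 to 241 CPM with DMSO and 129 to 170 CPM under RGX-104, of which Ctss made up 95.2 to 210.1 CPM over the 8 libraries. The 8 markers of CD4 and regulatory T cells, all detected, summed to 50.2 to 88.6 and 30.3 to 68.0 CPM, with Ikzf2 at 5.16 to 54.3 CPM and Cd4 at 0.0821 to 4.97 CPM. Of 10 dendritic cell markers 6 were at 0 throughout, Xcr1 and Itgax among them, and the sum reached 7.11 CPM. Of 10 markers of natural killer and innate lymphoid cells 6 were at 0 throughout, Ncr1 among them, and the sum was 9.46 to 16.9 and 7.22 to 12.1 CPM, with Eomes itself in that list. The part of these cells and of memory cells in the results was not tested.

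None of the 6 tested members passed the test over all genes (edgeR quasi-likelihood test, adjusted p under 0.05), where 0.11% of 10037 genes did, 0.0996% with RGX-104 higher and 0.00996% with RGX-104 lower. At an unadjusted p under 0.05 there was 1 member, Bcl6, and 3.81% of all genes, 1.98% higher and 1.82% lower. DESeq2 called 0 members and 0.419% of the 10975 genes to which it gave an adjusted p, and limma-voom 0 members. The log2 fold change was positive in 4 of the tested members and negative in 2. Its median was 0.06 in these 6, beside 0.01 over all genes tested. The plot of levels by library shows that the groups overlapped in every member except Bcl6.

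**Figure D1:**
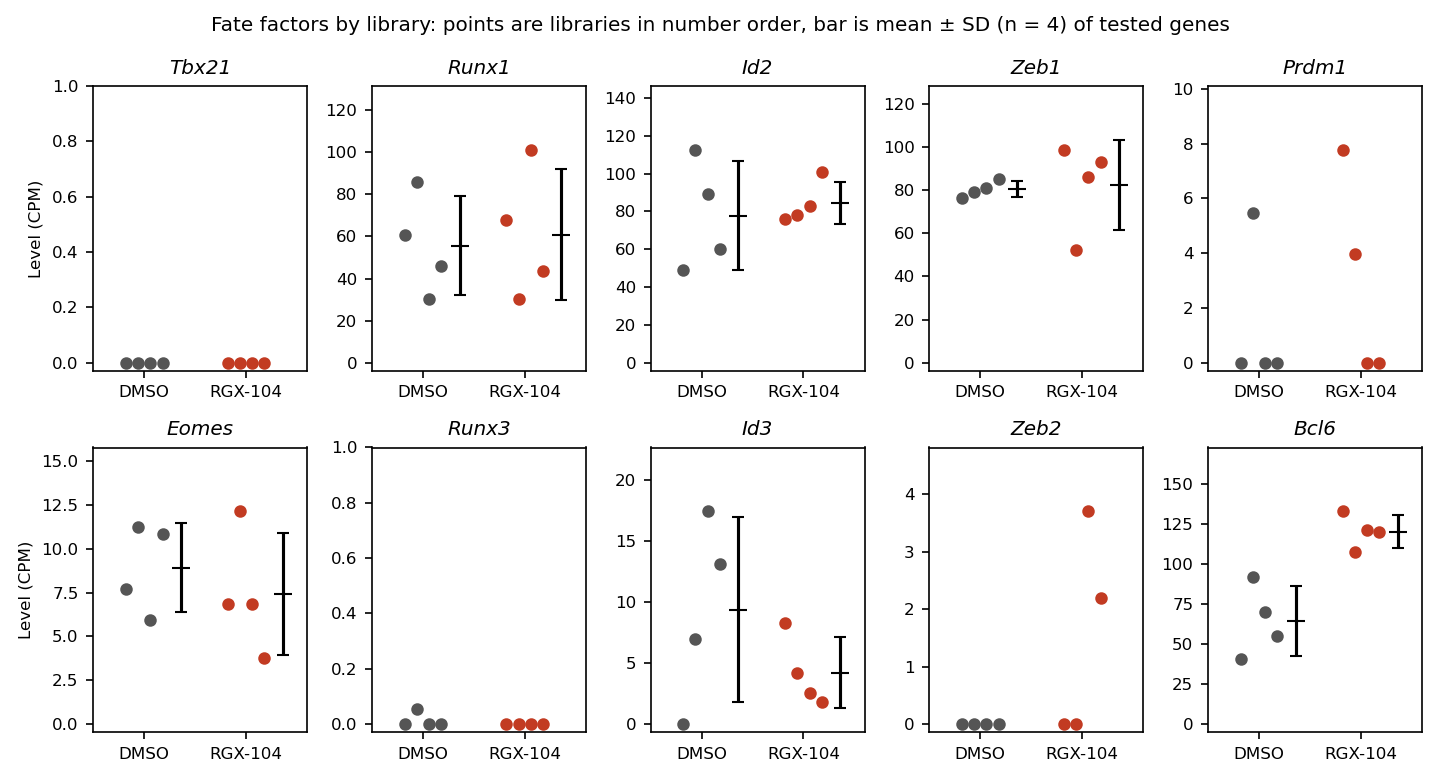
Level of each fate factor in CPM (vertical axis, from 0, with its own scale in each panel) in the 4 DMSO and the 4 RGX-104 libraries; points are libraries in order of their number, and the horizontal mark with whiskers gives mean ± SD for the tested genes. Bcl6 lies between 40.8 and 91.8 CPM with DMSO and between 107 and 133 CPM with RGX-104, while Tbx21 is at 0 throughout.

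Bcl6, a zinc finger repressor, stood at 40.8, 91.8, 70.0 and 55.3 CPM in DMSO replicates 1 to 4 and at 133, 107, 121 and 120 CPM in RGX-104 replicates 5 to 8. The lowest RGX-104 library exceeded the highest DMSO library, a separation that 2.2% of the genes tested showed in this direction and 3.56% in either direction. The mean was 64.5 ± 21.8 CPM with DMSO and 120 ± 10.5 CPM with RGX-104 (SD, n = 4 per group). The log2 fold change was 0.88 ± 0.25 (SE), a ratio of 1.85 with a 95% interval of 1.29 to 2.65. The gene ranked 26 of 10037 by p (edgeR, unadjusted p = 0.00226) and did not pass after adjustment (adjusted p = 0.872). DESeq2 gave an adjusted p of 0.0699 for it, and limma-voom 0.555. Bulk counts cannot tell more Bcl6 RNA per cell from more cells that hold it.

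The spread of Bcl6 was unequal between the groups. Its coefficient of variation was 33.8% in DMSO and 8.72% in RGX-104. Of 786 tested genes within 1.2-fold of its mean level, 6.62% had a smaller coefficient of variation in RGX-104 and 79.8% a smaller one in DMSO. Among these 786 genes 17 were separated in the same way, with RGX-104 higher, and 2 had a log2 fold change at least as large. The counts correspond to 8.18 to 17.5 apparent molecules of Bcl6 per DMSO library and 31.3 to 41.2 per RGX-104 library.

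Several values were set beside the Bcl6 difference. B cells express Bcl6 too, and 10 B cell markers summed to 79.7 to 274 CPM with DMSO and 168 to 245 CPM with RGX-104, so the RGX-104 libraries lay within the DMSO range. The long noncoding RNA Gm31527, at 23988267 to 23999436, overlaps the Bcl6 start, while 3' end reads of Bcl6 would fall mainly near 23965050. How reads within the overlap were assigned is not stated. Gm31527 stood at 3.25 CPM on average in DMSO and 3.49 CPM with RGX-104, with a highest value of 12.2 CPM. Read positions were not examined, and the part of overlap reads in the Bcl6 counts was not tested. Fewer genes were detected in DMSO replicates 1 to 3, and against DMSO replicate 4 alone, a comparison chosen after seeing the data, the Bcl6 log2 fold change was 1.09. That arm holds 1 library, assumed to vary like the RGX-104 libraries, so no p is read from it. With a term for how many genes each library detected it was 1.10 (adjusted p = 1.00).

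Prdm1, which encodes Blimp-1 and is repressed by Bcl6, was counted in 3 of 8 libraries. It stood at 5.49 CPM in DMSO replicate 2, at 7.78 and 3.98 CPM in RGX-104 replicates 5 and 6; the other libraries had none. These 102, 220 and 85 reads correspond to 1.00, 1.95 and 1.16 apparent molecules. Prdm1 was too low to test and its groups overlapped. The log2 ratio of Bcl6 to Prdm1, with 1 CPM added to both, was 5.30 ± 1.02 in DMSO and 5.55 ± 1.59 in RGX-104 (SD, n = 4 per group), and its highest and lowest values followed whether Prdm1 had any reads. The difference of 0.26 between these means lay between -0.23 and 0.80 when 1 library was left out, and between 0.04 and 0.62 with 0.5 or 5 CPM added instead, so it had no stable sign. Prdm1 lies on chromosome 10, 44437174 to 44528558.

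**Figure D2:**
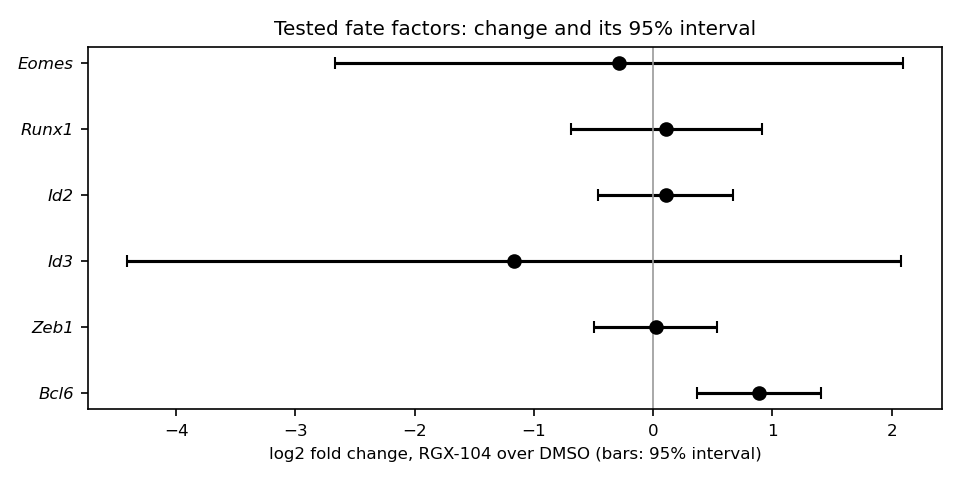
Log2 fold change of the 6 tested fate factors, RGX-104 over DMSO (horizontal axis), as points with bars for the 95% interval; n = 4 libraries per group. The Bcl6 interval runs from 0.36 to 1.41 and the others span 0, with Eomes and Id3 the widest.

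Of the Id proteins, Id2 was counted in every library and Id3 in 7 of 8. Id2, the inhibitor of E proteins known from effector cells, stood at 49.1, 113, 89.5 and 59.97 CPM with DMSO and at 75.8, 78.4, 82.9 and 101 CPM with RGX-104. All 4 RGX-104 values fell within the DMSO range. Its log2 fold change was 0.11 ± 0.27 (SE, edgeR adjusted p = 1.00), with a 95% interval from 0.73-fold to 1.59-fold, and it was 0.31 with a term for genes detected and -0.06 without DMSO replicate 1. A 2-fold difference of Id2 in either direction lies outside the interval of the main fit. With the term for genes detected the SE was larger, 0.35, so the same need not hold for that fit. Id2 is at chromosome 12, 25093799 to 25096092.

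Id3, its counterpart in naive cells and memory precursors, stood at 0, 6.99, 17.5 and 13.1 CPM with DMSO and at 8.31, 4.22, 2.53 and 1.84 CPM with RGX-104. The highest 2 values were DMSO libraries, but so was the single 0, and the groups overlapped. The log2 fold change was -1.16 ± 1.55 (SE, edgeR adjusted p = 1.00), with limma-voom giving the opposite sign, 0.59. The 95% interval ran from 0.0470-fold to 4.23-fold, so neither a several-fold fall nor a rise of up to that bound lies outside it. No library held more than 4.16 apparent molecules of Id3. The log2 ratio of Id2 to Id3 was 3.47 ± 1.64 in DMSO and 4.18 ± 0.91 in RGX-104, a difference of 0.71 that lay between 0.25 and 1.43 when 1 library was left out. Id3 is at chromosome 4, 136143822 to 136145392.

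The Zeb factors are zinc finger and homeodomain repressors that bind E boxes. Zeb1 stood at 76.6, 79.2, 80.9 and 85.4 CPM with DMSO and at 98.8, 52.3, 86.3 and 92.9 CPM with RGX-104. The DMSO libraries lay close together, with RGX-104 values both above and below them. The log2 fold change was 0.02 ± 0.25 (SE, edgeR adjusted p = 1.00), with a 95% interval from 0.708-fold to 1.45-fold, and its sign changed with limma-voom, with a term for genes detected, against DMSO replicate 4 alone and when DMSO replicate 1 or RGX-104 replicate 5, 7 or 8 was left out. The coefficient of variation in DMSO was 4.62%, and 0.468% of 854 genes of like level had a smaller one. In RGX-104 it was 25.2%, and 66.0% of these genes had a smaller one. Zeb1 is at chromosome 18, 5591327 to 5775468.

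Zeb2, the paralog known from terminal effectors, had no count in 6 libraries. RGX-104 replicates 7 and 8 had 60 and 37 reads of it, or 3.70 and 2.20 CPM. These correspond to 1.16 and 0.756 apparent molecules. Both libraries with reads were RGX-104 libraries, and the other 2 of that group were at 0 with all 4 DMSO libraries. The libraries with Zeb2 reads had 313647 and 344257 apparent molecules in all, and the DMSO libraries 182352 to 316834. Zeb2 was too low for the edgeR test, and DESeq2, which kept it, gave an unadjusted p of 0.0323 and an adjusted p of 0.427. The antisense transcript Zeb2os was counted in RGX-104 replicate 7 only, at 5.50 CPM. It lies at 45111138 to 45114087, near the Zeb2 start, while 3' end reads of Zeb2 on the minus strand would fall mainly near 44983512. How reads within the overlap were assigned is not stated. Read positions were not examined here either, and the part of overlap reads in the Zeb2 counts was not tested. Zeb2 is at chromosome 2, 44983512 to 45117442.

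Of the Runx factors, Runx1 was counted in every library and Runx3 in 1. Runx1 stood at 60.9, 85.7, 30.4 and 45.7 CPM with DMSO and at 67.8, 30.3, 101 and 43.6 CPM with RGX-104. The lowest and the highest value were both RGX-104 libraries. The log2 fold change was 0.11 ± 0.38 (SE, edgeR adjusted p = 1.00), with a 95% interval from 0.618-fold to 1.88-fold. It was 0.47 with a term for genes detected, -0.10 without DMSO replicate 3 and -0.25 without RGX-104 replicate 7. The coefficient of variation of Runx1 in RGX-104 was 51.2%, and 97.1% of 965 genes within 1.2-fold of its mean had a smaller one. In DMSO it was 42.3%, and 76.7% of the same genes had a smaller one. Runx1 is at chromosome 16, 92601466 to 92826074.

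Runx3, the Runx factor that silences Cd4 and holds the CD8 lineage, had 1 read in all 8 libraries together, in DMSO replicate 2. Its row is otherwise listed at 0. In the same libraries Cd8a, a known Runx3 target, stood at 627 to 703 CPM with DMSO and 722 to 773 CPM with RGX-104, and Cbfb, the Runx partner, at 172 ± 23.1 and 178 ± 44.2 CPM. The general T cell marker Cd2 and the chromatin genes Ctbp2 and Ehmt2 were likewise listed at 0 in every library, so a row at 0 in this table was not read as absence of the transcript. No annotated gene overlaps Runx3 at chromosome 4, 135120645 to 135177990.

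The T-box factors were low or listed at 0. Tbx21 had no read in any library (chromosome 11, 97098007 to 97115331), and 3 independent reads, the limit that a count of 0 allows, would be 0.0381 CPM over the DMSO group and 0.0363 CPM over the RGX-104 group. For 3 apparent molecules the limits were 3.29 and 2.50 CPM. Both limits cover counting error only.

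Eomes was counted in all 8 libraries, at 7.71, 11.2, 5.91 and 10.9 CPM with DMSO and at 6.86, 12.1, 6.85 and 3.80 CPM with RGX-104. The lowest and the highest value were RGX-104 libraries. For Eomes the log2 fold change was -0.29 ± 1.14 (SE, edgeR adjusted p = 1.00), with a 95% interval from 0.157-fold to 4.28-fold. Each library held 1.25 to 3.54 apparent molecules of Eomes, so a moderate difference was not detectable. Natural killer cells also express Eomes, and of 10 markers of these and of innate lymphoid cells, a list that includes Eomes, 6 were at 0 in every library. Markers of memory and virtual memory CD8 T cells summed to 1070 to 1291 CPM with DMSO and 1104 to 1201 CPM with RGX-104. The part of either cell type in the Eomes counts was not tested. Eomes is at chromosome 9, 118478186 to 118486132.

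**Figure D3:**
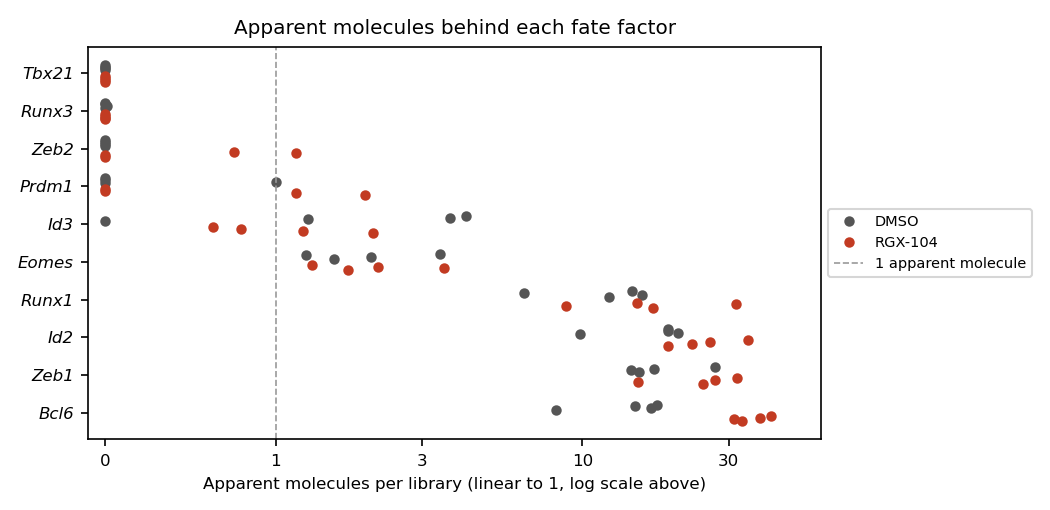
Apparent molecules of each fate factor in each library (horizontal axis, linear to 1 and logarithmic above), DMSO in grey and RGX-104 in red, with a dashed line at 1 apparent molecule. Prdm1, Zeb2, Id3 and Eomes lie at or below 4.16 apparent molecules in every library, and Bcl6 between 8.18 and 41.2.

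The 4 members of at least 20 CPM were also compared with all 6170 other tested genes of at least 20 CPM for the likeness of their pattern over the 8 libraries, as the root mean square difference of centred log2 levels. The genes nearest to Bcl6 were Gosr1, a Golgi transport protein, and Sdhd, a subunit of succinate dehydrogenase, at 0.16 and 0.22. Gosr1 stood at 15.1 to 35.2 CPM with DMSO and 36 to 52.0 CPM with RGX-104 (0.78 on the log2 scale, edgeR adjusted p = 1.00), again without overlap. For Runx1 the nearest were Gskip and Tmem208 (0.25 and 0.27), for Id2 Agpat3 and Glyr1 (0.11 and 0.15), and for Zeb1 Ftl1 and Imp3 (0.09 and 0.10). None of these 8 genes passed the test.

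The genes around the fate factors were described by 4 lists, of which no tested member passed with edgeR. The plot of the lists shows their log2 fold changes. Of 19 partners of the factors 16 were tested. Their log2 fold changes had a median of 0.02 and were positive in 10 and negative in 6, and none had an unadjusted p under 0.05. The most abundant were Ncor1, a corepressor bound by Bcl6, at 586 ± 70.8 CPM with DMSO and 582 ± 32.3 CPM with RGX-104, Tle3 at 226 ± 44.0 and 261 ± 64.7 CPM, Cbfb, and Ctbp1, a corepressor bound by Zeb factors, at 117 ± 49.5 and 167 ± 28.4 CPM. DESeq2 and limma-voom called 0 partners. Id1, another Id protein, was named after its values were seen. It stood at 3.07 to 11.3 CPM with DMSO and at 1.31, 0, 0 and 0 CPM with RGX-104, without overlap but not called (edgeR adjusted p = 1.00). Of all genes tested 1.35% were separated with RGX-104 lower. In these libraries 1 apparent molecule stood for 2.90 to 5.48 CPM, so the Id1 values rest on few molecules.

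Of 42 other regulators of effector and memory fates 37 were tested, 18 above 0 and 19 below, with a median log2 fold change of -0.02. At an unadjusted p under 0.05 edgeR had 1 higher and 1 lower, DESeq2 called 1 lower and limma-voom 0. The most abundant factors were Foxp1 at 1161 ± 117 and 1157 ± 57.6 CPM, Klf2 at 815 ± 61.6 and 862 ± 56.9 CPM, Tcf7 at 723 ± 98.5 and 762 ± 120 CPM and Bcl11b at 607 ± 31.4 and 645 ± 5.81 CPM with DMSO and RGX-104. These keep T cells naive or hold T cell identity, and each of their 95% intervals spans 0. The gene called by DESeq2 was Lef1, a factor of naive and memory T cells, at 338 to 369 CPM with DMSO and 204 to 264 CPM with RGX-104 (-0.59 ± 0.14 on the log2 scale, adjusted p = 0.348 with edgeR and 2.08e-04 with DESeq2). The higher gene was Hif1a, a factor of the response to low oxygen, named after its values were seen. It stood at 9.68 to 38.8 CPM with DMSO and 39.3 to 67.6 CPM with RGX-104 (1.08 ± 0.42 on the log2 scale, edgeR adjusted p = 1.00).

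Tox, a factor of exhausted and memory CD8 T cells, was named because 1 library decided its call. It stood at 6.22, 10.8, 5.26 and 73.6 CPM with DMSO and at 43.0, 80.0, 43.8 and 77.0 CPM with RGX-104. DMSO replicate 4 lay with the RGX-104 libraries and the other DMSO libraries far below. Its log2 fold change was 1.31 ± 0.64 (SE, edgeR adjusted p = 1.00) and 3.03 without DMSO replicate 4 (adjusted p = 0.0138). DMSO replicates 1 to 3 were also the libraries with the fewest apparent molecules, and the part of this in the Tox values was not tested.

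**Figure D4:**
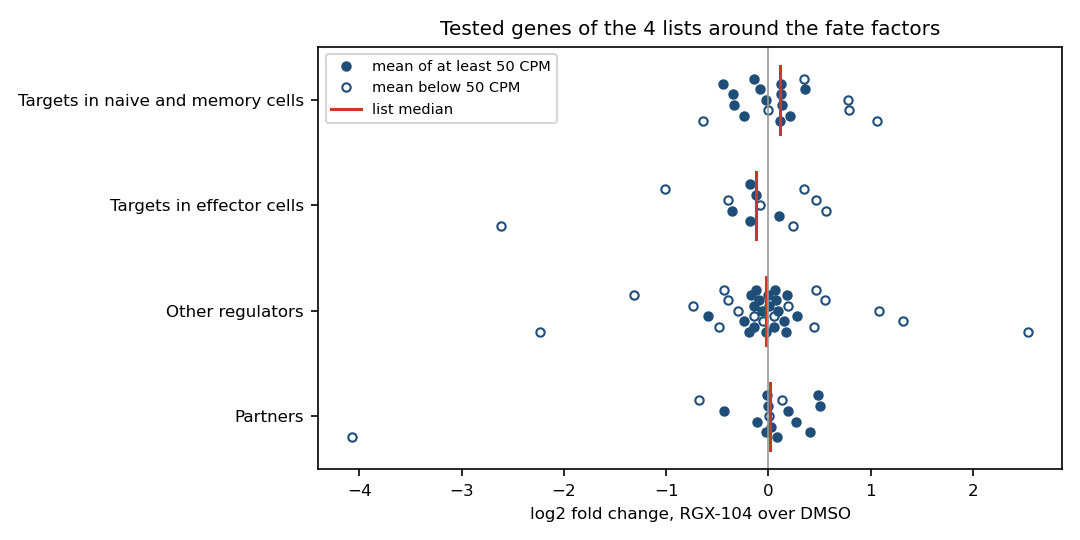
Log2 fold change, RGX-104 over DMSO (horizontal axis), of the tested genes of 4 lists: partners of the fate factors, other regulators, and targets in effector and in naive and memory cells. Filled points have a mean of at least 50 CPM, open points less, and red lines mark list medians, which lie between -0.12 and 0.11.

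Genes known as targets of T-bet, Eomes, Zeb2 or Blimp-1 in effector cells gave 13 tested of 25, with 8 at 0 in every library. The log2 fold change was above 0 in 5 and below 0 in 8, with a median of -0.12, and none had an unadjusted edgeR p under 0.05. DESeq2 and limma-voom called 0. Il2rb, a receptor chain for interleukins 2 and 15, stood at 366 ± 77.9 CPM with DMSO and 396 ± 69.4 CPM with RGX-104. Itga4, an integrin chain, stood at 393 ± 22.2 and 351 ± 38.2 CPM, Nkg7, a granule protein, at 328 ± 22.1 and 306 ± 18.8 CPM, and Ctsw, a lymphocyte cathepsin, at 140 ± 35.6 and 111 ± 8.28 CPM. Ifng, Klrg1, Cx3cr1 and S1pr5 were among the genes at 0.

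Genes known as targets of E proteins, Runx factors, Bcl6 or Zeb1 in naive and memory cells gave 19 tested of 23, with 10 above 0 and 9 below and a median log2 fold change of 0.11. None was called by edgeR, DESeq2 or limma-voom, and 3 were lower at an unadjusted edgeR p under 0.05, where 1.82% of all genes tested were. Among them, and named after their values were seen, were Il7r, the interleukin 7 receptor, at 354 to 445 CPM with DMSO and 295 to 353 CPM with RGX-104, and S1pr1, the egress receptor, at 416 to 586 and 374 to 415 CPM. In both the groups did not overlap, and the adjusted p was 1.00; 1.35% of all genes tested were separated with RGX-104 lower. Of the most abundant, Bcl2 stood at 1494 ± 148 and 1424 ± 55.9 CPM, Ccr7 at 757 ± 149 and 839 ± 101 CPM, Cd8b1 at 719 ± 30.03 and 716 ± 60.3 CPM, and Cd8a at 668 ± 33.8 and 739 ± 23.1 CPM.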

How the data were processed

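The deposited values are raw read counts, whole numbers for each gene symbol with 1 column per library, and per the file headers they carry no normalization. The labels' protocols name a QuantSeq 3' kit. From the submitters' processing notes come the names STAR 2.7.8a, R 4.1.0, DESeq2 1.4 and GRCm38, with no step assigned to them. Which tool and annotation gave the counts, with which strand setting and whether with molecular identifiers, is in none of the sources used here. A 3' end count does not scale with transcript length, and levels were compared between groups, not between genes.

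Counts were tested with edgeR 4.0.16 in R 4.3.3 (quasi-likelihood test, TMM, group as the only term), after filterByExpr with a minimum count of 10, which kept 10037 genes. The Benjamini-Hochberg adjustment ran over all of these. Standard errors and 95% intervals are Wald values of the fitted model. CPM use the total count of a library. DESeq2 1.42.0 and limma-voom 3.58.1 were alternatives, with other scalings, filters, a covariate and the omission of each library in turn. The test was also run on simulated counts, with the same dispersion for every gene and changes only in the more abundant genes. That setting differs from the low or variable members, so it does not show how the test performs for them. Apparent molecules per library were estimated from the share of zeros among genes of 2 to 20 CPM in the other libraries, under Poisson sampling. Gene coordinates and promoter windows are from RefSeq on GRCm38.p6. No batch, day or pairing is given in the labels, so no such term was fitted.

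The 10 factors and the 4 lists were chosen with earlier results of these data known, so no test over a list was made. All 10 factors are named whatever their values. Of each list the 4 tested genes of highest mean CPM are named and any called by edgeR or DESeq2, and genes chosen after their values were seen are said to be. For each factor of at least 20 CPM the 2 genes of most similar pattern are named. Some genes of the lists are not reported here by name.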

Additional observations from a re-analysis of the deposited data

Results flagged for a closer look

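The spread within a group was examined for 42 sets of 4 libraries, and in 4 of them 1 library lay far from the rest; chance gives about 1 in 20. That rate does not hold for 3 of the 4, where the other libraries were at or near 0. Runx3 had its single read in DMSO replicate 2, at 0.0538 CPM, and Prdm1 stood at 5.49 CPM in the same library, with both genes at 0 in DMSO replicates 1, 3 and 4. The summed macrophage and monocyte markers of RGX-104 replicate 8 came to 129 CPM, while RGX-104 replicates 5 to 7 had 168 to 170 CPM. The summed dendritic cell markers of DMSO replicate 4 came to 7.11 CPM, while DMSO replicates 1 to 3 had at most 0.0411 CPM.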

How the results depend on the processing

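No fate factor was called under any of the 17 alternatives run. Without 1 library at a time the log2 fold change of Bcl6 lay between 0.72 and 1.09 (edgeR adjusted p from 0.274 to 1.00), and under the other settings between 0.87 and 1.10 (adjusted p from 0.0699 with DESeq2 to 1.00). Runx1 stood at 0.47 and Id2 at 0.31 with genes detected as a covariate, and at 0.38 and 0.46 against DMSO replicate 4 alone. Leaving out 1 library moved Runx1 between -0.25 and 0.38, Id2 between -0.064 and 0.33, Zeb1 between -0.084 and 0.18, Eomes between -0.64 and -0.07, and Id3 between -1.73 and -0.69. The sign changed for Id3 with limma-voom (0.59) and for Zeb1 with limma-voom (-0.0094), with genes detected as a covariate (-0.016) and against DMSO replicate 4 alone (-0.082), an alternative chosen after seeing the data, with 1 library in an arm, that moved the median of all genes to 0.13; the cause was not tested. Over all genes DESeq2 called 27 higher and 19 lower genes against 10 and 1, the covariate gave 6 higher, limma-voom 3 lower and no filter 4 lower. Leaving out 1 library gave 7 to 11 higher and 1 to 3 lower genes. Among other regulators DESeq2 called 1 lower (Lef1), and leaving out 1 library gave 0 to 1 higher (Tox, without DMSO replicate 4). No list gene was called in any other setting. No paired analysis was possible because the library numbers are unique across the groups. No library held more than 4.16 apparent molecules of Eomes, Id3, Zeb2 or Prdm1, which limits what this depth can show of them.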
